A study of Homo sapiens with 12 samples.

Results

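The genes described here are the CDK inhibitors and the p53-MDM2 axis in prostate cancer cells with altered GALNT7, a glycosyltransferase that takes part in the O-linked glycosylation of proteins. They are 9 genes chosen by name out of 59424 identifiers in the tables: CDKN1A, CDKN1B, CDKN1C, CDKN2A, CDKN2B, CDKN2C, CDKN2D, CDKN3 and MDM2. All 9 were found under a single Ensembl identifier each, and all 9 passed the filter on low values in both cell lines. RNA-seq was run on 12 libraries. CWR22Rv1 cells, an androgen receptor positive line, carried a lentiviral control shRNA (shControl, n = 3) or a GALNT7 knockdown (GALNT7 KD, n = 3). DU145 cells, an androgen receptor negative line, carried a lentiviral control open reading frame (OE control, n = 3) or GALNT7 overexpression (GALNT7 OE, n = 3). The lines were made by stable lentiviral transduction, and the labels call the libraries biological replicates without saying whether a group holds more than 1 transduced population. Knockdown was measured only in CWR22Rv1 and overexpression only in DU145, so the type of change in GALNT7 and the cell line cannot be told apart.

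Progression through the cell cycle is driven by cyclin-dependent kinases (CDKs), which are held back by a pair of inhibitor families. The CIP/KIP proteins p21 (CDKN1A), p27 (CDKN1B) and p57 (CDKN1C) bind complexes of cyclins with CDKs, above all those of CDK2, while the INK4 proteins p16 (CDKN2A), p15 (CDKN2B), p18 (CDKN2C) and p19 (CDKN2D) bind CDK4 and CDK6 and keep the retinoblastoma protein RB1 active. CDKN2A also encodes ARF from another reading frame, which binds MDM2. MDM2 is the ubiquitin ligase that marks p53 for degradation, and both MDM2 and CDKN1A are classic p53 target genes. CDKN3 is named with this group but is a phosphatase that acts on CDKs, and its RNA is abundant in dividing cells. DU145 cells are known to lack functional RB1.

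The promoters of CDKN1A, CDKN3 and MDM2 are shown as examples. The sequences are the 250 bases before the annotated start of transcription, from RefSeq on GRCh38.p14, all on the plus strand. Windows of 300 bases, with 250 before and 50 after the start, were found for 8 of the 9 members, 14 windows in all. CDKN1C, the member with the change largest in size, had none. As the background served 35116 such windows in all genes. Capitals mark matches, on either strand, to TTTGAA (the cell cycle homology region, present in 15.2% of all windows), CCAAT (34.6%), the E2F letters TTTGGCGC or TTTCGCGC (1.15%), GGGCGG (the GC box, 45.0%) and the p53 consensus site without a spacer and with at most 3 mismatches over its 20 bases (5.20%). The p53 consensus was added to the search after the sequences had been seen.
CDKN1A, chr6:36678464-36678713: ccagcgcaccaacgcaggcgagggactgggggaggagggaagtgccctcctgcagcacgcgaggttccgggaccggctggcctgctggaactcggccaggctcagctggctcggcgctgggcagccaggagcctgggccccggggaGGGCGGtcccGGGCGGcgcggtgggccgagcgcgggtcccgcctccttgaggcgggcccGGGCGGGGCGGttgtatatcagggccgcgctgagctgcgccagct
CDKN3, chr14:54396757-54397006: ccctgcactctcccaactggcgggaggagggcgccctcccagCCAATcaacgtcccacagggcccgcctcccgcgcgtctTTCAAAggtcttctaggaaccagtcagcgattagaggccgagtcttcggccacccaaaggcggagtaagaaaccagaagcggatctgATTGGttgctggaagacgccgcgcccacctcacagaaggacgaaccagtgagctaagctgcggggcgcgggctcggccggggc
MDM2, upstream start, chr12:68807927-68808176: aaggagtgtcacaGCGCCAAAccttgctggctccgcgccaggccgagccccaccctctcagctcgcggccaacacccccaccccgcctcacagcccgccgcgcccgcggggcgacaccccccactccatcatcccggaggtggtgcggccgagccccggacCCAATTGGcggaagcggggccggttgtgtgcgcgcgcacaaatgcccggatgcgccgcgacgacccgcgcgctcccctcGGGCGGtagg
MDM2, start in the first intron, chr12:68808767-68809016: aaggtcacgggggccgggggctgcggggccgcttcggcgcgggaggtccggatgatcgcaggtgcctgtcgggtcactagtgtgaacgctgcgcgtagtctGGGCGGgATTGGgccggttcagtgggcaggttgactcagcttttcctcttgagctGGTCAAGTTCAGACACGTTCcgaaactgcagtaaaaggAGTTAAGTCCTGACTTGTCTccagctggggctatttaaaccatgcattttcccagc
The CDKN1A window held 4 GC boxes, the closest a pair sharing 1 base at -45 and -40 from the start, and no match to the other motifs. The CDKN3 window held 1 cell cycle homology region, on the minus strand at -170, with a CCAAT on each strand at -208 and -83. The upstream MDM2 window held 1 E2F match at -237, a pair of overlapping CCAAT matches at -89 and -86, and 1 GC box at -10. The other MDM2 window lies in the intron that runs from 68808492 to 68809207 in the transcript MDM2-202, and there the p53 consensus was matched at -94 with 2 mismatches and at -56 with 3. Windows of CDKN1B and CDKN2B, not shown, also held a match to it, at -231 and -156 with 3 mismatches each. Only these letters were searched, so a window without a match shows no more than their absence from it. All distances are from the RefSeq starts. By GENCODE, the source of the gene positions below, CDKN1A and CDKN3 begin earlier, at 36676460 and 54396849.

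GALNT7 itself was measured first. Its normalised count, the number of reads divided by a size factor per library, was 999 ± 122 in shControl and 461 ± 53.7 in GALNT7 KD (mean ± SD, n = 3 here and throughout), with a log2 fold change of -1.11. In DU145 it was 964 ± 75.8 in OE control and 2181 ± 176 in GALNT7 OE, with a log2 fold change of 1.18. The libraries held 18364512 to 22264533 reads in CWR22Rv1 and 21628718 to 24356910 in DU145. All 4 epithelial markers examined (EPCAM, KRT8, KRT18 and CDH1) had a mean of at least 5 in every group. The 6 markers of androgen receptor positive prostate cells were all above this level in CWR22Rv1 and 1 of the 6 was in DU145, where KLK3 was at 0. Of 9 markers of other cell types CD3E was at 0 in every library, but their summed normalised count, carried mostly by LUM in CWR22Rv1 and by CD68 in DU145, lay between 362 and 439 in shControl, 784 and 959 in GALNT7 KD, 2895 and 3191 in OE control, and 1064 and 1242 in GALNT7 OE. The part of this shift in the results below was not tested. In these bulk libraries fewer cells of a type and less RNA per cell cannot be told apart.

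Of the 9 genes, 2 changed with GALNT7 knockdown and 8 with GALNT7 overexpression. In CWR22Rv1 CDKN1A rose and CDKN1B fell. In DU145 CDKN1A, CDKN2A, CDKN2B, CDKN2C, CDKN2D, CDKN3 and MDM2 rose, and CDKN1C fell. CDKN1A was the only one of the 9 called in both comparisons, and it was higher in both. The share of all genes called in both was not counted. The test was limma on log2(normalised count + 1) over all genes with a mean of at least 5, adjusted by the Benjamini-Hochberg method and read at 0.05. In knockdown 9.06% of the 17906 genes tested passed it (5.28% higher and 3.79% lower), beside 2 of 9 members. In overexpression 43.5% of 18705 passed (22.9% higher and 20.5% lower), beside 8 of 9 members. With the OE values rescaled to their 75th percentile, which moved the median of all genes from -0.01 to -0.11 on the log2 scale, 7 of 9 members passed and the share of calls that were higher went from 52.8% to 41.6%. The groups did not overlap for 6 of 9 members in knockdown, where this held for 32.5% of all genes tested, and for 9 of 9 in overexpression, where it held for 55.3%. For a single gene, 3 libraries against 3 allow no exact two-sided permutation p below 0.1.

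**Figure D1:**
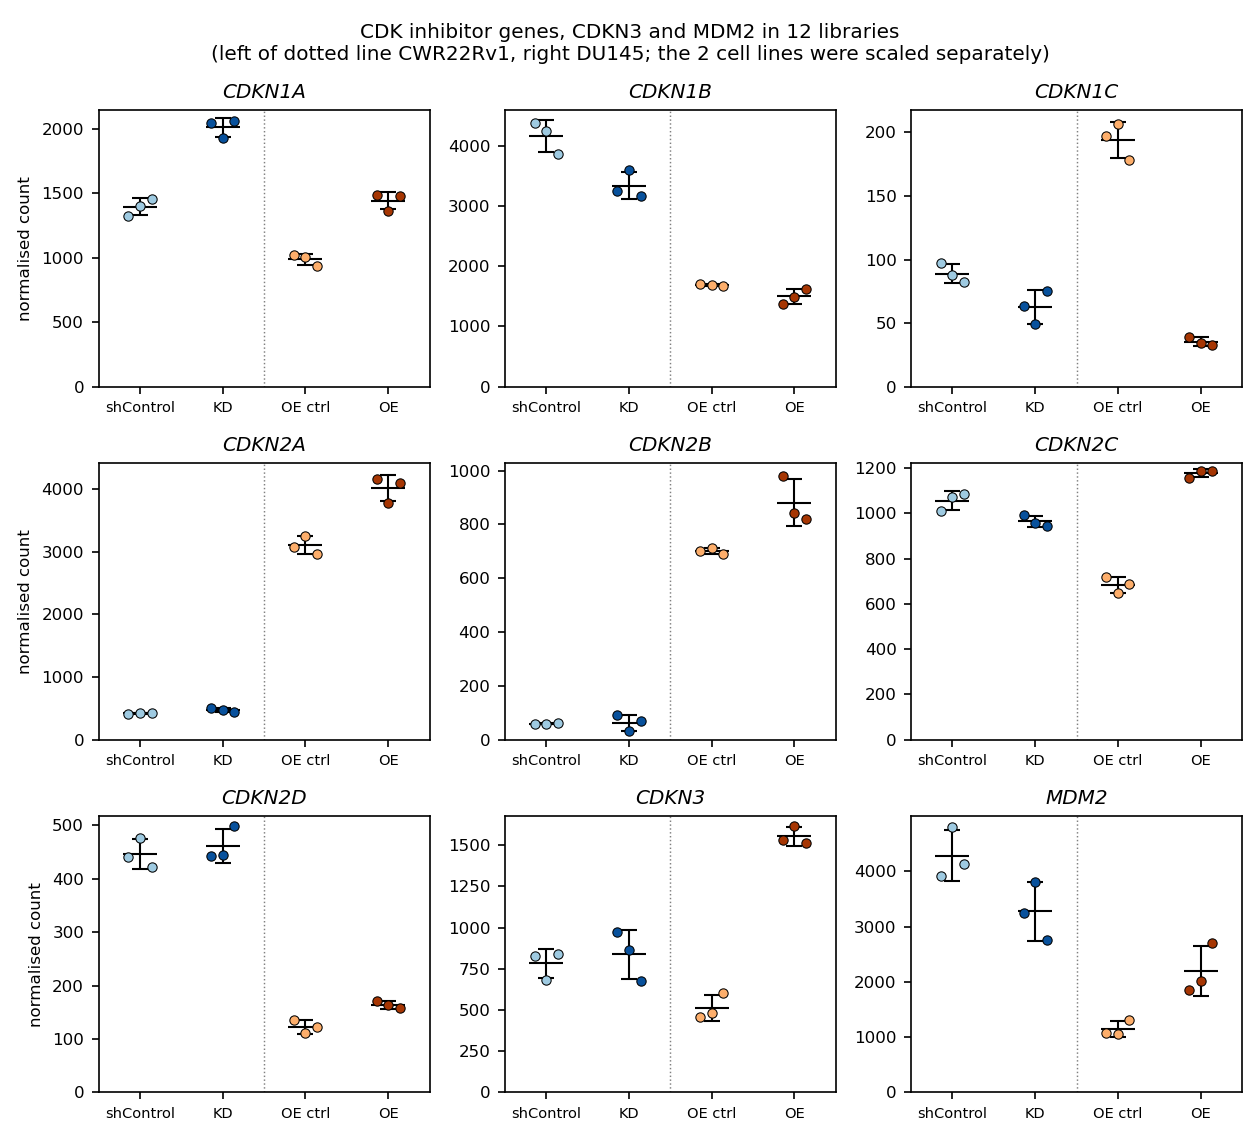
Normalised count (linear axis from 0) of each of the 9 genes in every library, with the 3 replicates of a group as points, the mean as a horizontal line and the SD as a bar; the dotted line divides CWR22Rv1 from DU145, which were scaled separately. CDKN1A lies higher in both treated groups than in their controls, CDKN3 reaches 1511 to 1618 in GALNT7 OE, and CDKN1C is lowest in GALNT7 OE, between 32.5 and 39.1.

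**Figure D2:**
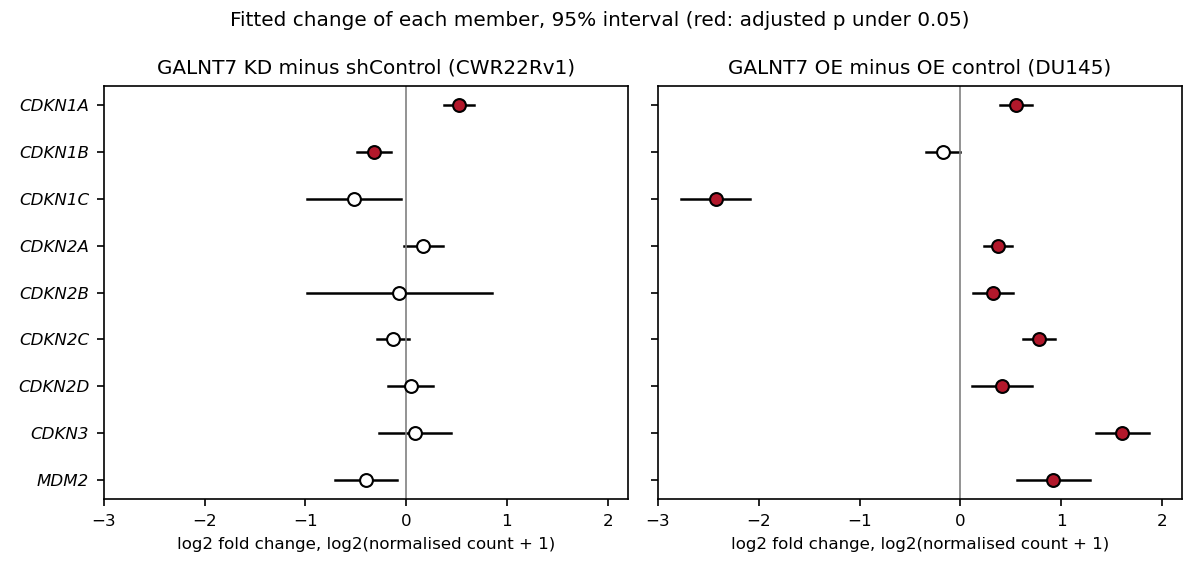
Log2 fold change of log2(normalised count + 1) for each gene (points) with its 95% interval from limma (lines), for GALNT7 KD minus shControl on the left and GALNT7 OE minus OE control on the right; red points passed an adjusted p of 0.05. The 2 red points on the left are CDKN1A (0.53) and CDKN1B (-0.32), and on the right CDKN1B (-0.17) is the only open one.

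CDKN1A (ENSG00000124762; chromosome 6, 36676460 to 36687339, plus strand) encodes p21. Its normalised counts were 1324, 1402 and 1456 in shControl and 2044, 1924 and 2060 in GALNT7 KD. Every knockdown library lay above every control. The fold change was 1.44, with a log2 fold change of 0.53 (standard error, SE, 0.0629, limma adjusted p = 0.0059). In DU145 the counts were 1020, 1001 and 934 in OE control and 1487, 1364 and 1475 in GALNT7 OE. Here too every treated library lay above every control, with a fold change of 1.46 and a log2 fold change of 0.55 (SE 0.0664, limma adjusted p = 0.00071). The rise passed the test in all 18 alternatives in both cell lines, its log2 fold change lying between 0.48 and 0.56 in CWR22Rv1 and between 0.45 and 0.59 in DU145. The replicates of CDKN1A were close together, with a coefficient of variation between 3.69% and 4.74% in the 4 groups. The 3 genes with the most similar profile over the 12 libraries, each cell line centred on its own mean, were TUBB3, a tubulin (Pearson's r = 0.987), ANXA7, an annexin (0.981), and PRDX1, a peroxiredoxin (0.980), among 11816 genes compared. These correlations rest on 12 libraries in 4 groups and are given as a description.

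CDKN1B (ENSG00000111276; chromosome 12, 12715058 to 12722371, plus strand) encodes p27. Its normalised counts were 4389, 4255 and 3867 in shControl and 3261, 3598 and 3174 in GALNT7 KD. All knockdown libraries were below all controls, with a fold change of 0.802 and a log2 fold change of -0.32 (SE 0.0715, limma adjusted p = 0.041). The median log2 fold change of the 922 tested genes of chromosome 12 was -0.28 in this comparison, against -0.01 over all genes tested. With each library centred on its chromosome medians the log2 fold change of CDKN1B was -0.05 (limma adjusted p = 0.69). Without GALNT7 KD replicate 1 or 3 or any one of the 3 shControl replicates the adjusted p rose above the threshold, up to 0.133, with log2 fold changes from -0.37 to -0.28 over the 6 libraries left out. APOLD1, which starts downstream of CDKN1B on the same strand, fell from 298 ± 50.5 to 131 ± 7.88 (log2 fold change -1.17 without centring, limma adjusted p = 0.0080). In DU145 CDKN1B had 1705, 1692 and 1669 normalised counts in OE control and 1377, 1492 and 1631 in GALNT7 OE. The groups did not overlap, but replicate 3 of GALNT7 OE lay close to the controls and the log2 fold change of -0.17 (SE 0.0718) did not pass the test (limma adjusted p = 0.091). Without that library it did (adjusted p = 0.032), and it also passed after rescaling to the 75th percentile, quantile normalisation and chromosome centring.

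CDKN1C (ENSG00000129757; chromosome 11, 2883213 to 2885773, minus strand) encodes p57 and is an imprinted gene. In DU145 its normalised counts were 198, 207 and 178 in OE control and 39.1, 34.2 and 32.5 in GALNT7 OE. The groups were far apart. The fold change was 0.186 and the log2 fold change -2.43 (SE 0.146, limma adjusted p = 3.4e-05), the largest in size among the 9 genes, and the fall passed all 18 alternatives. In CWR22Rv1 the counts were 97.1, 87.5 and 82.4 in shControl and 63.8, 49.1 and 75.1 in GALNT7 KD. These did not overlap either, but the log2 fold change of -0.52 (SE 0.197) did not pass the test (limma adjusted p = 0.157). KCNQ1OT1, the long antisense RNA of the same imprinted region, was at -0.31 in CWR22Rv1 and -0.24 in DU145 on the log2 scale, neither past the threshold (limma adjusted p = 0.358 and 0.226).

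All 4 INK4 genes rose in DU145, and a call of 2 of them depended on the processing. CDKN2A (ENSG00000147889; chromosome 9, 21967753 to 21995301, minus strand) had normalised counts of 3079, 3251 and 2965 in OE control and 4164, 3780 and 4101 in GALNT7 OE. All treated libraries were above the controls (log2 fold change 0.37, SE 0.0581, limma adjusted p = 0.0022). In CWR22Rv1 CDKN2A had 413, 417 and 419 in shControl and 498, 466 and 444 in GALNT7 KD, also without overlap, with a log2 fold change of 0.17 that did not pass (limma adjusted p = 0.249). Gene counts do not separate p16 from ARF. CDKN2B (ENSG00000147883; chromosome 9, 22002903 to 22009363, minus strand) had 702, 713 and 690 in OE control and 980, 844 and 819 in GALNT7 OE. This was a rise of 0.32 on the log2 scale (limma adjusted p = 0.020). It was lost without OE control replicate 1 or 3 (adjusted p up to 0.060), after rescaling to the 75th percentile and after quantile normalisation. In CWR22Rv1 CDKN2B had few reads, with normalised counts of 57.9, 59.2 and 61.3 in shControl and 89.9, 29.9 and 67.4 in GALNT7 KD. The knockdown libraries lay on both sides of the controls and varied by 48.6% (coefficient of variation), against 12.5% from counting alone, and the log2 fold change of -0.07 (95% interval -0.99 to 0.85) turned to 0.38 without GALNT7 KD replicate 2.

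CDKN2A and CDKN2B are both overlapped on the opposite strand by the long non-coding RNA CDKN2B-AS1. It had 25.9 ± 10.7 normalised counts in shControl and 11.7 ± 6.37 in GALNT7 KD (log2 fold change -1.17, limma adjusted p = 0.204), and 37.1 ± 1.59 in OE control and 33.2 ± 7.21 in GALNT7 OE (log2 fold change -0.18, limma adjusted p = 0.560). The library kit keeps the strand, but the strand setting of the quantification is not given in the sources used here, so reads of the antisense RNA may be part of these values. MTAP, a neighbouring gene, had a log2 fold change of 0.08 in CWR22Rv1 (limma adjusted p = 0.566) and 0.41 in DU145 (limma adjusted p = 0.0503). Without OE control replicate 3 the latter passed (adjusted p = 0.038).

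CDKN2C (ENSG00000123080; chromosome 1, 50960745 to 50974633, plus strand) was the INK4 gene with the largest rise in DU145. Its normalised counts were 720, 647 and 687 in OE control and 1158, 1187 and 1188 in GALNT7 OE. The fold change was 1.72 and the log2 fold change 0.78 (SE 0.0658, limma adjusted p = 0.00014), and it passed all 18 alternatives. In CWR22Rv1 it had 1009, 1073 and 1088 in shControl and 993, 958 and 945 in GALNT7 KD, a difference of -0.13 on the log2 scale that did not pass (limma adjusted p = 0.263) although the groups did not overlap. CDKN2D (ENSG00000129355; chromosome 19, 10566462 to 10569059, minus strand) had 136, 110 and 122 in OE control and 171, 164 and 157 in GALNT7 OE. The log2 fold change of 0.42 passed (SE 0.125, limma adjusted p = 0.033), but the call was lost in 10 of 18 alternatives, among them DESeq2 on the recovered reads and the removal of any GALNT7 OE replicate or of OE control replicate 2 or 3 (adjusted p up to 0.098). In CWR22Rv1 CDKN2D had 441, 477 and 421 in shControl and 442, 444 and 498 in GALNT7 KD, which overlapped (log2 fold change 0.05, limma adjusted p = 0.805).

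CDKN3 (ENSG00000100526; chromosome 14, 54396849 to 54420218, plus strand) had the largest rise of the 9 genes in DU145. Its normalised counts were 457, 482 and 603 in OE control and 1533, 1618 and 1511 in GALNT7 OE. Every treated library was far above every control. The fold change was 3.04 and the log2 fold change 1.61 (SE 0.111, limma adjusted p = 6.2e-05). In CWR22Rv1 CDKN3 had 830, 681 and 838 in shControl and 972, 864 and 679 in GALNT7 KD, which overlapped, with a log2 fold change of 0.09 (95% interval -0.27 to 0.45, limma adjusted p = 0.761). The genes most like it over the 12 libraries were FANCA of the Fanconi anaemia pathway (r = 0.984), DHFRP1, a pseudogene of dihydrofolate reductase that may share reads with its parent gene (0.982), and ING2 (0.981). CDKN3 is the member whose window above held the cell cycle homology region, which 15.2% of all windows held. Whether that match has a part in the rise was not tested.

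MDM2 (ENSG00000135679; chromosome 12, 68808176 to 68850686, plus strand) had normalised counts of 1074, 1055 and 1310 in OE control and 1861, 2014 and 2711 in GALNT7 OE. Every treated library was above every control, although the treated ones varied by 20.6% (coefficient of variation) and replicate 3 was the highest of both groups. The fold change was 1.90 and the log2 fold change 0.92 (SE 0.155, limma adjusted p = 0.0031). In CWR22Rv1 MDM2 had 3921, 4808 and 4126 in shControl and 3240, 3813 and 2764 in GALNT7 KD. All knockdown libraries were lower, but the log2 fold change of -0.40 (95% interval -0.70 to -0.09) did not pass the test (limma adjusted p = 0.109), while DESeq2 on the recovered reads gave an adjusted p of 0.026. Like CDKN1B, MDM2 lies on chromosome 12, and after centring on the chromosome medians its log2 fold change was -0.13 (limma adjusted p = 0.565). Transcripts from its 2 start regions, whose sequences are shown above, are summed in these counts and cannot be told apart. MDM2 is overlapped by CPM on the opposite strand, which was at 24.2 ± 17.7 in shControl but at 4021 ± 413 in OE control and 4567 ± 299 in GALNT7 OE. The genes most like MDM2 were BTF3 (r = 0.971), an identifier without a symbol, ENSG00000280830 (0.970), and DDX10 (0.967).

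The next genes read were the regulators of the p53 pathway. MDM4, the partner of MDM2 that also restrains p53, was at 1714 ± 64.4 in shControl and 1687 ± 277 in GALNT7 KD, and at 505 ± 95.6 in OE control and 512 ± 60.3 in GALNT7 OE. It passed in neither (limma adjusted p = 0.890 and 0.892). Of 18 regulators tested in knockdown 1 passed (5.56%, against 9.06% of all genes), the acetyltransferase KAT5, which fell from 1039 ± 47.3 to 738 ± 77.7 (log2 fold change -0.50, limma adjusted p = 0.026), and this call was lost without GALNT7 KD replicate 1 or 3 or any shControl replicate (adjusted p up to 0.098). In overexpression 6 of 17 passed (35.3%, against 43.5% of all genes), all of them higher, with a list median of 0.20. They include the checkpoint kinases CHEK1, from 849 ± 55.5 to 1869 ± 107 (log2 fold change 1.14), CHEK2, from 693 ± 41.8 to 997 ± 57.0 (0.52), and ATR, from 1068 ± 135 to 1518 ± 217 (0.50). The call of ATR was lost without OE control replicate 2 or 3 (adjusted p up to 0.058).

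Genes known as p53 targets moved in both directions. In knockdown 5 of 46 passed (10.9%, against 9.06% of all genes), 4 higher and 1 lower, and the list median was 0.13 on the log2 scale against -0.01 over all genes tested. GDF15, a secreted stress cytokine, had the largest rise, from 1014 ± 279 to 2666 ± 864 (log2 fold change 1.38, limma adjusted p = 0.026). The hydrolase gene CMBL rose from 1102 ± 31.0 to 1897 ± 109 (0.78) and the death receptor gene TNFRSF10B from 2327 ± 172 to 3324 ± 188 (0.52). EPS8L2 was the gene that fell, from 1133 ± 157 to 704 ± 91.3 (-0.68). GDF15 lost its call without GALNT7 KD replicate 1 or shControl replicate 2 or 3 (adjusted p up to 0.074), and EPS8L2 without GALNT7 KD replicate 1 or 2 or shControl replicate 1 or 3 (up to 0.101). In overexpression 29 of 44 passed (65.9%, against 43.5% of all genes), 13 higher and 16 lower, with a list median of -0.15. CCNG1, DDB2 and AEN, which encode cyclin G1, a DNA damage sensor and an apoptotic nuclease, rose by 1.08, 1.07 and 1.06 on the log2 scale. TP53INP1, DRAM1 and FUCA1 fell by 1.45, 1.42 and 1.40.

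There were 5 p53 target genes called in both comparisons. Taken singly, 9.06% of all genes passed in knockdown and 43.5% in overexpression, and the share passing in both was not counted. CCNG1 and CMBL were higher in both and EPS8L2 was lower in both. TNFRSF10B was higher in knockdown and lower in overexpression (log2 fold change -0.54), and so was GDF15, which in DU145 went from 42.1 ± 22.9 to 5.56 ± 1.2. The knockdown call of CCNG1 (log2 fold change 0.21, limma adjusted p = 0.042) was lost without any one library but GALNT7 KD replicate 3 (adjusted p up to 0.138), with the replicate block (0.087) and after chromosome centring (0.074). The overexpression call of CMBL (0.32, limma adjusted p = 0.024) was lost without OE control replicate 1 or 3 or GALNT7 OE replicate 1 or 2 (adjusted p up to 0.077), and after rescaling to the 75th percentile or quantile normalisation. GDF15 also lost its knockdown call with the replicate block (adjusted p = 0.064). These 5 are named because they are the whole set.

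The partners of the inhibitors are the cyclins, the CDKs, PCNA and the retinoblastoma family. In knockdown 5 of 14 passed (35.7%, against 9.06% of all genes), 2 higher and 3 lower. CCND3 rose from 729 ± 47.7 to 1008 ± 92.0 (log2 fold change 0.47) and CCNE2 from 1063 ± 76.0 to 1446 ± 15.3 (0.45). CCND1, which encodes cyclin D1, fell from 41421 ± 1531 to 31622 ± 2957 (-0.39). CDK4 fell from 6591 ± 45.3 to 5465 ± 367 (-0.27) and CDK2 from 3980 ± 187 to 3366 ± 114 (-0.24). Both kinase genes lie on chromosome 12, and after centring CDK2 was at 0.03 and CDK4 at -0.0022 on the log2 scale. CCND3 on chromosome-centred values had 0.42 (limma adjusted p = 0.052). All 5 calls were lost without at least 1 library: without any one of the 6 for CCND3 and CDK2, without any but GALNT7 KD replicate 3 for CDK4, without GALNT7 KD replicate 1 or shControl replicate 1 or 3 for CCND1, and without GALNT7 KD replicate 1 or shControl replicate 3 for CCNE2, with adjusted p of at most 0.132. In overexpression 11 of 14 passed (78.6%, against 43.5% of all genes), 10 of them higher, with a list median of 0.56. CDK1, CCNB1 and CCNA2, the kinase and cyclins of G2 and mitosis, rose by 2.18, 2.04 and 1.98 on the log2 scale. CDK2 rose from 1506 ± 18.8 to 2937 ± 141 (0.96) and CDK4 from 1752 ± 196 to 2289 ± 152 (0.39), while CDK6, with SDs of 174 and 262, did not pass in DU145 (0.72, limma adjusted p = 0.201) or in CWR22Rv1 (0.81, adjusted p = 0.195). RB1 rose from 1072 ± 86.8 to 1394 ± 130 (0.38, limma adjusted p = 0.016), a call lost without GALNT7 OE replicate 2 or OE control replicate 1 or 3 (adjusted p up to 0.055). It was also lost after chromosome centring (log2 fold change 0.26, limma adjusted p = 0.070). RBL2, which encodes the pocket protein p130, was the gene that fell, from 3745 ± 119 to 2569 ± 179 (-0.55).

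Genes linked to the turnover or repression of the inhibitors gave 2 calls of 20 in knockdown (10%, against 9.06% of all genes) and 13 of 20 in overexpression (65%, against 43.5%). In knockdown BMI1, a Polycomb repressor of the CDKN2A locus, fell from 1297 ± 228 to 672 ± 52.8 (log2 fold change -0.94, limma adjusted p = 0.011), and CUL4B, a cullin of the ligase that degrades p21 in S phase, rose from 1977 ± 80.8 to 2429 ± 159 (0.30, adjusted p = 0.044). The first call was lost without GALNT7 KD replicate 1 or shControl replicate 1 (adjusted p up to 0.053) and the second without any but GALNT7 KD replicate 3 (up to 0.139), as well as after chromosome centring (0.063). In overexpression 12 rose, with DTL (1.59), which targets p21 to that ligase, CKS1B (1.58) and SKP2 (1.10), which together deliver p27 for degradation, highest. SKP2 went from 1187, 1100 and 1394 in OE control to 2478, 2783 and 2624 in GALNT7 OE. BMI1 passed here too but rose, from 4005, 3836 and 3775 in OE control to 5649, 6239 and 6272 in GALNT7 OE. It was the only gene of this list called in both comparisons, in opposite directions, and the share of all genes called in both was not counted. MYC was the gene that fell, from 5001 ± 200 to 4134 ± 252 (-0.28). In CWR22Rv1 SKP2 had a log2 fold change of 0.10 (adjusted p = 0.473).

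Proliferation genes were read beside the inhibitors because several inhibitors vary with the cell cycle. All 20 rose in overexpression (100%, against 43.5% of all genes), with a list median of 1.64 and values from 0.57 to 2.18 on the log2 scale, so that the rise of CDKN3 (1.61) was close to that median and those of CDKN2C (0.78) and CDKN1A (0.55) were below it. PLK1, BUB1 and AURKA, kinases of mitosis, led the list with 2.18, 2.17 and 2.14. In knockdown 1 of 20 passed (5%, against 9.06%), TYMS, which fell from 5448 ± 111 to 4254 ± 92.8 (-0.36), and the median was -0.11. What the proliferation genes contribute to the changes of the 9 genes was not tested.

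**Figure D3:**
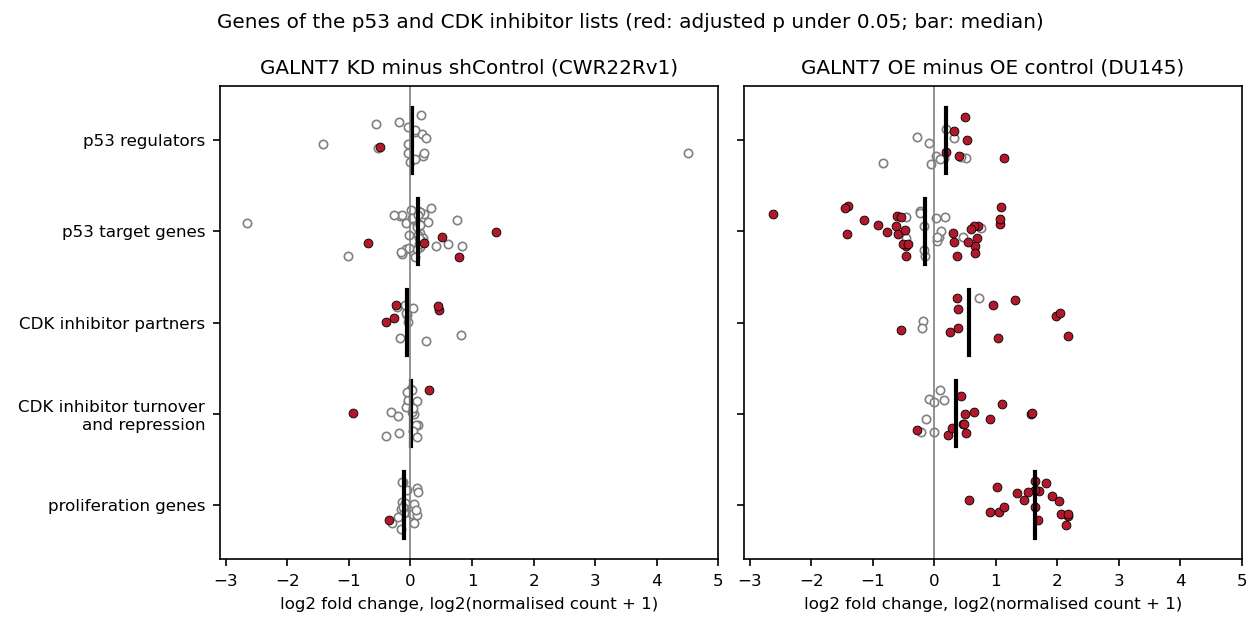
Log2 fold change of log2(normalised count + 1) for each tested gene of the 5 lists (points, spread vertically at random), GALNT7 KD minus shControl on the left and GALNT7 OE minus OE control on the right; red points passed an adjusted p of 0.05 and black bars are list medians. On the right all 20 proliferation genes are red with a median of 1.64, and the p53 target genes lie on both sides of 0 (13 higher and 16 lower).

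The 9 genes also differed in level. The RPKM, reads per kilobase of exon scaled to a common library size (over the exons of all transcripts of a gene) was used for this, since a longer gene gives more reads. These joined lengths ran from 1503 bases for CDKN2D to 13284 for MDM2. They can exceed the length of a single transcript, so the order and the shares below depend on them. In shControl the order was CDKN1B at 75.3 ± 4.83, CDKN1A at 23.2 ± 1.13, CDKN3 at 21.6 ± 2.43, MDM2 at 16.4 ± 1.79, CDKN2C at 16.2 ± 0.662, CDKN2D at 15.1 ± 0.952, CDKN2A at 4.88 ± 0.0471, CDKN1C at 1.82 ± 0.150 and CDKN2B at 0.744 ± 0.0227. The ranges of CDKN1A and CDKN3 overlapped, and so did those of neighbours from MDM2 to CDKN2D. In OE control the order was CDKN2A at 32.3 ± 1.57, CDKN1B at 27.1 ± 0.295, CDKN1A at 14.6 ± 0.673, CDKN3 at 12.6 ± 1.91, CDKN2C at 9.30 ± 0.469, CDKN2B at 7.79 ± 0.141, MDM2 at 3.89 ± 0.478, CDKN2D at 3.69 ± 0.383 and CDKN1C at 3.53 ± 0.268. Here CDKN1A overlapped CDKN3, and the last 3 overlapped their neighbours. CDKN1B thus led in CWR22Rv1 and CDKN2A in DU145, and this difference in order between the lines was not tested because the tables were scaled separately. In GALNT7 OE the order began with CDKN2A at 41.1 ± 2.07 and CDKN3 at 37.5 ± 1.52, whose ranges overlapped, and ended with CDKN1C at 0.631 ± 0.0647.

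Summed over the 7 inhibitor genes, without CDKN3 and MDM2, this level was 132 to 140 in shControl and 131 to 134 in GALNT7 KD, ranges that overlapped. Within the sum the share of CDKN1B was 54.9% ± 2.08 in shControl and 45.8% ± 2.52 in GALNT7 KD, and that of CDKN1A 16.9% ± 1.26 and 25.4% ± 1.23. In DU145 the sum was 95.3 to 99.9 in OE control and 113 to 118 in GALNT7 OE, without overlap. The share of CDKN1B was 27.6% ± 0.433 and 20.3% ± 1.66, that of CDKN1A 14.8% ± 0.323 and 17.98% ± 0.362, and that of CDKN1C 3.59% ± 0.186 and 0.541% ± 0.0526. CDKN2A made up 32.8% (32.1% to 34.0% over libraries) and 35.3% (34.4% to 36.2%). In both lines the treated libraries thus held a larger share of CDKN1A and a smaller share of CDKN1B, with no overlap of the groups. Shares of one sum depend on each other, so a fall of CDKN1B alone raises the share of CDKN1A, and no test was run on them. In CWR22Rv1 the median log2 fold change of chromosome 12, which holds CDKN1B, was -0.28. CDKN1B itself was at -0.05 there after centring on the chromosome medians, and the shares were not centred.

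**Figure D4:**
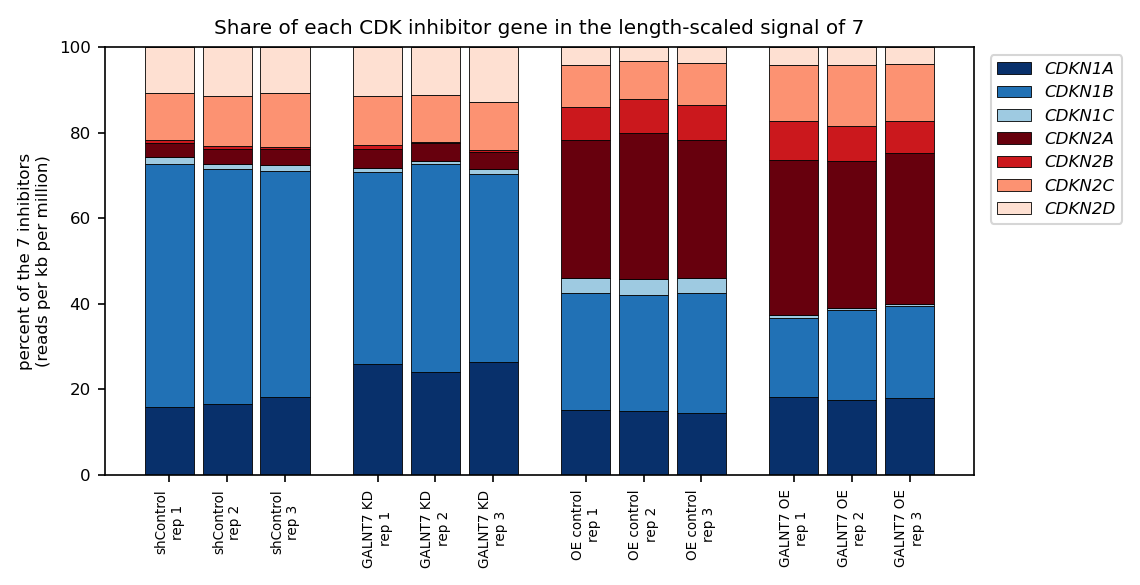
Share of each of 7 CDK inhibitor genes in their summed RPKM (vertical axis, percent), 1 bar per library, grouped as shControl, GALNT7 KD, OE control and GALNT7 OE. The CDKN1A segment is larger in GALNT7 KD (25.4% on average) than in shControl (16.9%) and the CDKN1B segment smaller, and CDKN2A makes up 32.8% of OE control and 35.3% of GALNT7 OE on average.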

How the data were processed

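RNA-seq of 12 libraries was analysed, 3 per group in 4 groups taken from the sample titles. The authors deposited a table of normalised counts per cell line (a signal, reads per gene over a library's size factor) for 59424 Ensembl identifiers. The submitters' processing notes name hg38, R 3.5.3, FastQC, Salmon and DESeq2, with no order or further versions, and per the labels the TruSeq Stranded mRNA kit was used. Every value was a whole multiple of what 1 read is worth (tolerance 1e-06), so reads were recovered for 100% of the values, 18364512 to 24356910 per library. The mean chi-square per gene between replicates was 9.44 to 26.0, so none was a repeat of another. Gene names, GRCh38 positions and exon lengths came from GENCODE release 29 (94.4% of identifiers matched), and promoter windows from RefSeq (GRCh38.p14).

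Differences were tested within each cell line in R 4.3.3 with limma 3.58.1 (lmFit, eBayes with a trend, two-sided) on the log2 of the normalised count plus 1, keeping genes whose mean over 6 libraries was at least 5, with Benjamini-Hochberg adjustment at 0.05. On this scale changes of genes with few reads are understated. Alternatives were pseudocounts of 0.5 and 5, other filters (a mean of 20, or none), quantile normalisation, scaling by the 75th percentile, eBayes without trend, the replicate block, edgeR 4.0.16 and DESeq2 1.42.0 on the recovered reads, chromosome centring, a threshold of 0.01 and each library left out. The tests were tried on simulated counts. Besides the members, GALNT7, MDM4, RB1, CDK2, CDK4, CDK6, SKP2, CDKN2B-AS1 and MTAP, the named genes are, per list and direction, up to 3 with the largest change past the threshold, a mean of at least 50 and groups that do not overlap. The members and lists were chosen with earlier results of these data known. KCNQ1OT1, APOLD1 and CPM belong to a list of neighbouring genes, with PANDAR, which had no read in any library. APOLD1, KCNQ1OT1 and CPM, and the p53 target genes called in both comparisons, are named outside that rule, after their values were seen. The further p53 target genes under other observations are outside the rule as well. Some genes covered by the rule or the lists are not reported here, although the counts include them. Columns of other samples were not present in the tables used.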

Additional observations from a re-analysis of the deposited data

How the results depend on the processing

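CDKN1A kept its direction and its call in all 18 alternatives in both comparisons, and in overexpression CDKN1C, CDKN2A, CDKN2C, CDKN3 and MDM2 did too. The number of members called in knockdown, 2, was 1 without a filter, with eBayes without trend, after chromosome centring and at a threshold of 0.01, and 1 to 2 with a library left out; the cause was not tested. In overexpression it was 6 to 9 of 9 in every alternative. Over all genes tested in knockdown the calls numbered 1623 in the main fit, 996 with eBayes without trend and 2642 with DESeq2. They numbered 1386 after chromosome centring and 539 to 1336 with a library left out, and the list counts below stand beside these. For the lists in knockdown, p53 regulators gave 0 with eBayes without trend, 3 with DESeq2, 0 at 0.01 and 0 to 1 with a library left out (6 had an unadjusted p under 0.05, and edgeR called 1). p53 target genes gave 2 with eBayes without trend, 11 with DESeq2, 1 at 0.01 and 2 to 8 with a library left out. CDK inhibitor partners gave 3 with the replicate block, 2 after chromosome centring, 1 with eBayes without trend, 0 at 0.01 and 0 to 3 with a library left out (7 had an unadjusted p under 0.05, and edgeR called 5 and DESeq2 7). Turnover and repression genes gave 1 without a filter, after 75th percentile rescaling, with eBayes without trend and after centring, 0 at 0.01 and 0 to 3 with a library left out (4 had an unadjusted p under 0.05, edgeR called 2 and DESeq2 3). Proliferation genes gave 2 with DESeq2 and 1 to 3 with a library left out. In overexpression only a threshold of 0.01 moved a list count by over 1.5 times, to 3 for p53 regulators and 7 for partners. Among the members, GALNT7 and the genes that the naming rule chose or always listed, 11 of the 16 called in knockdown lost the call without at least 1 library, and 4 of the 32 called in overexpression. Beside these, CCNG1 lost its call in knockdown and CMBL, BBC3 and TNFRSF10C lost theirs in overexpression. With a library left out the calls over all genes also fell, from 1623 to between 539 and 1336 in knockdown. In overexpression they fell from 8132 to between 6757 and 7629. The share of all called genes that lost a call was not counted.

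Some log2 fold changes near 0 changed sign. In knockdown CDKN2B was at 0.066 with edgeR, 0.069 with DESeq2 and -0.40 to 0.38 with a library left out. With a library left out CDKN2D ranged from -0.0098 to 0.095, CDKN3 from -0.025 to 0.23, MDM4 from -0.14 to 0.10 and RB1 from -0.0027 or -0.0090 up to 0.083. CDK2, which was called, turned to 0.029 after chromosome centring. In overexpression MDM4 was at -0.068 after 75th percentile rescaling, -0.0057 after quantile normalisation and from -0.13 to 0.15 with a library left out. CDKN2B-AS1 was at 0.13 after quantile normalisation and from -0.30 to 0.0050 with a library left out.

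Libraries with the same replicate number did not deviate together throughout (mean correlation of their deviations 0.0519 in knockdown, from 0.00063 to 0.131, and 0.0378 in overexpression), so the numbers were not taken as pairs, although in overexpression each library correlated best with its own number, as it did not in knockdown. Over all genes tested the replicate block gave 1002 calls instead of 1623 in knockdown and 7405 instead of 8132 in overexpression, and edgeR on the recovered reads called 1546 and 8042. With the block the members called were 2 in knockdown and 7 in overexpression, where CDKN2D was lost (limma adjusted p = 0.059). Counting alone gives a coefficient of variation of 10.1% to 12.6% for CDKN1C and CDKN2B in CWR22Rv1 and of 16.7% for CDKN1C in GALNT7 OE, whereas CDKN2B in GALNT7 KD varied by 48.6%.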

Other observations

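The p53 target genes that act in apoptosis were looked at after their values were seen. In GALNT7 OE the mitochondrial death genes BBC3 and PMAIP1 fell, with log2 fold changes of -0.45 (limma adjusted p = 0.046) and -0.60 (adjusted p = 0.0015), while BAX had 0.11 and APAF1 0.46, neither past the threshold (adjusted p = 0.306 and 0.096). Of the death receptor genes TNFRSF10A rose by 0.55, TNFRSF10B fell by 0.54, and FAS (-0.23) did not pass (limma adjusted p = 0.170). The related decoy receptor gene TNFRSF10C fell by 0.43. The call of BBC3 was lost without any one library but OE control replicate 2 (adjusted p up to 0.137), with the replicate block (0.091) and after chromosome centring (0.079), and that of TNFRSF10C without OE control replicate 1 or 2 or GALNT7 OE replicate 1 or 2 (up to 0.110) and with the block (0.085). PERP, a p53 target at cell junctions, fell from 2372 ± 50.9 to 1563 ± 32.0 normalised counts (-0.60).

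Among p53 targets of growth arrest and repair, BTG2 fell from 457 ± 17.2 to 269 ± 13.5 (-0.76) and GADD45A from 800 ± 51.3 to 562 ± 49.97 (-0.51) in GALNT7 OE, where SFN, which encodes 14-3-3 sigma, rose from 2426 ± 13.8 to 3965 ± 157 (0.71). The repair and nucleotide supply genes POLH and RRM2B rose by 0.70 and 0.67, and XPC fell by 0.47. These genes were picked outside the naming rule, and CCNG1 and DDB2, given above, rose by 1.08 and 1.07. Of the 44 p53 target genes tested in overexpression 65.9% passed, 13 higher and 16 lower, against 43.5% of all genes. In knockdown SFN had a log2 fold change of -0.27 (limma adjusted p = 0.070) and XPC of 0.14 (adjusted p = 0.113). The differences between the comparisons were not tested, since each was made in its own cell line and table.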
